A study of Mus musculus with 6 samples.

Results

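The genes described here are 10 genes of insulin signalling and of FoxO-dependent transcription in mouse liver, among 55357 genes counted. They were chosen by name: the insulin receptor gene Insr, its substrates Irs1 and Irs2, the transcription factor genes Foxo1 and Foxo3, the genes Depp1, Igfbp1, Sesn1 and Sesn3, which are FoxO targets or are reported as such, and Klf15, a transcription factor of fasting metabolism. The choice was made with the comparison of esculetin with vehicle already known, because Depp1 was among the clearest higher genes, so the values of the 10 genes in that comparison are a description, given without p-values. Depp1 was 2.90-fold higher with esculetin, a difference many times the spread between libraries. Foxo1 was 1.44-fold higher and Irs1 was 1.80-fold lower, and in each of these 3 genes the groups did not overlap, as in 17.4% of all tested genes. The other 7 genes differed by less, and their groups overlapped.

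Insulin binds its receptor in the hepatocyte membrane, and the receptor phosphorylates the adaptor proteins IRS1 and IRS2, which recruit PI3-kinase and so activate the kinase AKT. AKT phosphorylates FOXO1 and FOXO3, which then leave the nucleus. When insulin is low the FOXO proteins stay in the nucleus and raise the transcription of genes of fasting, such as Igfbp1 and G6pc1, and Irs2 is itself a gene that FOXO1 raises in liver. RNA levels do not show how much of these proteins is phosphorylated or nuclear.

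Livers came from wild-type C57BL6/J male mice of 8 to 9 weeks that were gavaged daily for 7 days, with 2.5% Tween-80 alone (vehicle) or with esculetin, a coumarin compound. All mice ate a control diet with 10% of kcal from fat for 4 days and then a high-fat diet with 60% of kcal from fat for 3 days, so both groups carry the change of diet and no library of mice kept on the control diet was analysed. The sample titles give the esculetin dose as 180 mg/kg/d and the treatment field gives 90 mg/kg/d for the same libraries, so the dose is not settled here. There were 3 libraries per group, each made from the pooled livers of a pair of mice, so a value averages over its mice and the spread is that between pools. The question addressed is how esculetin altered liver transcription during short high-fat feeding, and here how far genes of insulin and FoxO signalling took part.

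Total counts per library lay between 27957713 and 34920922, and the 3 esculetin libraries held more counts than any of the vehicle group. A count of 3 stood for 0.0859 to 0.107 CPM of the raw library total, depending on the library. All CPM values below are relative to the total as scaled by the TMM method. All 10 genes passed the expression filter of edgeR, and the lowest count of any of them in any library was 170, for Irs1. Of the hepatocyte markers that check the labelled tissue, Alb lay between 54311 and 61206 CPM. The first principal component of log2 CPM, which held 27.6% of the variance, separated the groups, and on it esculetin replicate 1 (31.4) lay apart from the other esculetin libraries (13.9 and 13.2), while the vehicle libraries lay between -23.0 and -15.3. Without esculetin replicate 1 the fitted log2 fold changes were 1.61 for Depp1, 0.50 for Foxo1, -0.81 for Irs1 and 0.65 for Igfbp1.

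The receptor gene Insr lies on chromosome 8 of GRCm39 from 3172061 to 3329647. It had 171, 156 and 156 CPM in the vehicle libraries and 174, 163 and 181 CPM in the esculetin libraries. The groups overlapped, and the fitted difference was 0.10 on the log2 scale (standard error 0.078, n = 3 per group, edgeR). Insr also varied least between libraries of a group among the 10 genes, with a standard deviation of 0.0757 in log2 CPM where the median of all tested genes was 0.186.

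Irs1, which encodes the adaptor shared by liver, muscle and fat, lies on chromosome 1 from 82210822 to 82269338. It had 10.7, 11.1 and 8.28 CPM with vehicle and 5.29, 6.23 and 5.23 CPM with esculetin. Every esculetin library was below every vehicle library, and the means ± SD were 10.0 ± 1.52 and 5.58 ± 0.561 CPM (n = 3). The fitted log2 fold change was -0.84 (standard error 0.16). It stayed between -0.96 and -0.76 when any 1 library was left out.

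Irs2, the adaptor that carries much of the insulin signal in liver, lies on chromosome 8 from 11034681 to 11059499. It had 18.5, 21.0 and 17.3 CPM with vehicle and 14.2, 15.3 and 19.6 CPM with esculetin. Here esculetin replicate 3 lay among the vehicle libraries, and the fitted log2 fold change was -0.21 (standard error 0.14), which ran from -0.35 without that library to -0.11 without esculetin replicate 1. Counted per exon length, Irs1 made up 31.3%, 29.5% and 27.4% of the summed level of both adaptors with vehicle and 22.7%, 24.2% and 17.4% with esculetin. This share was lower in every esculetin library than in any vehicle library, so the transcripts of the adaptors leaned further towards Irs2 with esculetin.

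Foxo1, the FoxO factor best known for control of glucose output in liver, lies on chromosome 3 from 52175757 to 52260642. Its values were 46.9, 41.3 and 56.3 CPM with vehicle and 71.7, 68.0 and 68.0 CPM with esculetin. All esculetin libraries were above all vehicle libraries, and they lay closer together than the vehicle libraries, with a mean ± SD of 69.3 ± 2.13 CPM against 48.2 ± 7.60 CPM (n = 3). The fitted log2 fold change was 0.52 (standard error 0.11), which is under 1.5-fold. Without vehicle replicate 3, the highest vehicle library, it was 0.65, which is over 1.5-fold.

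Foxo3 lies on chromosome 10 from 42057837 to 42154007 and encodes another FoxO factor of liver. It had 70.5, 67.2 and 63.7 CPM with vehicle and 81.4, 67.5 and 80.7 CPM with esculetin. Esculetin replicate 2 lay within the vehicle range, so the groups overlapped, with a fitted log2 fold change of 0.19 (standard error 0.091). Foxo4, a member of the family that was not among the 10 genes, had 36.9 ± 2.83 CPM with vehicle and 43.6 ± 0.949 CPM with esculetin (n = 3), with a log2 fold change of 0.24 (unadjusted p = 0.0149, adjusted p = 0.294, edgeR). Foxo6 was at or near 0 counts in all libraries and was not tested. Per exon length, Foxo1 made up 22.6% of the summed level of Foxo1, Foxo3 and Foxo4 on average with vehicle, and 26.7%, 27.5% and 25.7% in the esculetin libraries, each of which was above every vehicle share.

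Depp1 encodes a small protein linked to autophagy and to the response to oxidative stress, and is induced by FoxO factors and by progesterone. It lies on chromosome 6 from 116627570 to 116629755. It had 31.4, 39.5 and 37.8 CPM in the vehicle libraries, or counts of 921, 1288 and 1037. In the esculetin libraries it had 94.1, 98.6 and 122 CPM, or counts of 3028, 3422 and 4091. The lowest esculetin library, at 94.1 CPM, stood well above the highest vehicle library, at 39.5 CPM. The fitted log2 fold change was 1.53 (standard error 0.12), and it lay between 1.41 and 1.61 when any 1 library was left out. Within groups Depp1 varied about as much as a typical gene, with a standard deviation of 0.189 in log2 CPM.

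**Figure D1:**
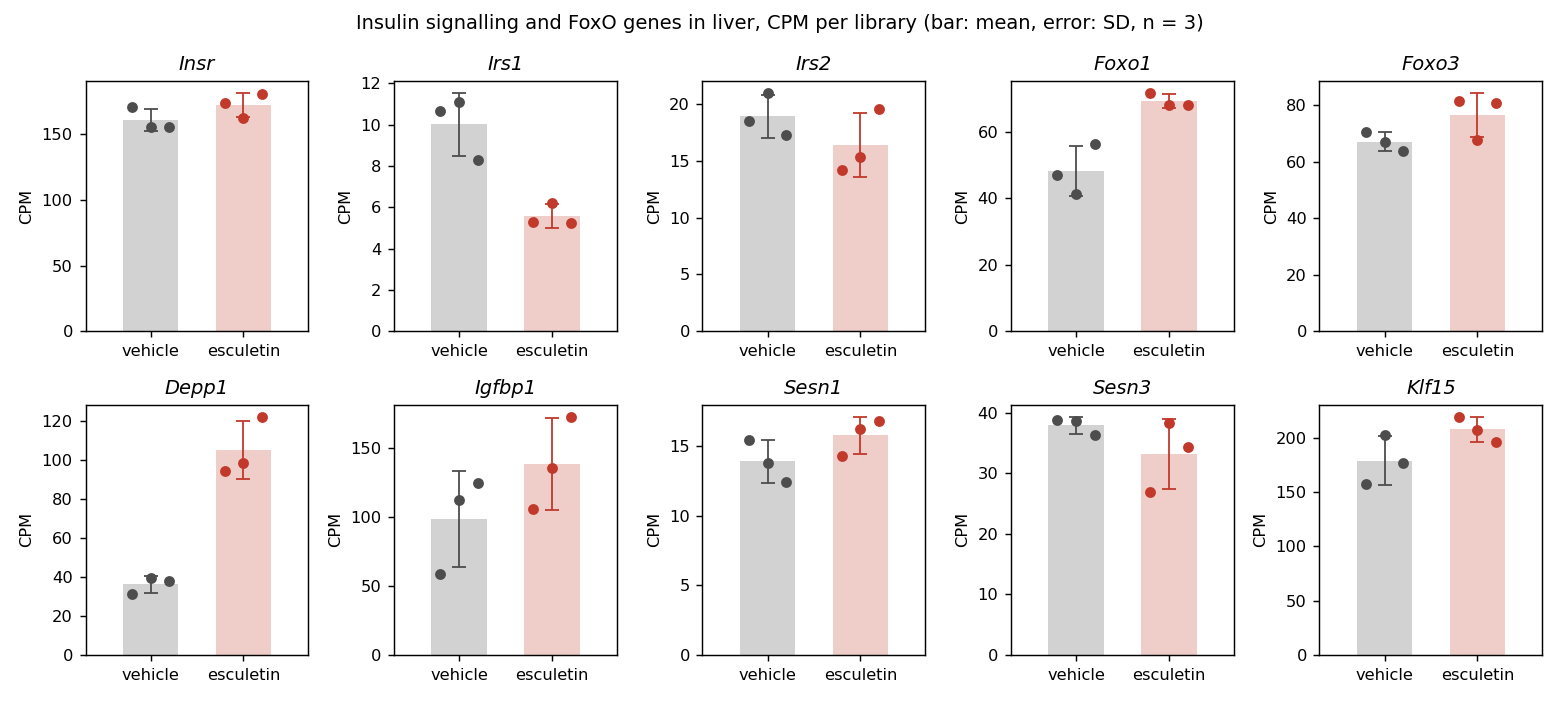
Level of each of the 10 genes in CPM (vertical axes, each starting at 0) in the 3 vehicle and 3 esculetin libraries, with points for libraries, bars for means and error bars for the SD. Depp1 and Foxo1 are higher and Irs1 is lower in every esculetin library than in any vehicle library, while the groups of the other 7 genes overlap.

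Because FoxO factors bind the letters GTAAACA (or TGTTTAC on the other strand) and the related insulin response core CAAAACA (or TGTTTTG), both strands of the sequences before the genes were searched for them. The 300 bases before the GENCODE start of the genes with the 2 largest positive differences are shown because Depp1 and Foxo1 lead the comparison. Capitals mark matches, and the sequences are from GRCm39, plus strand, at chr6:116627270-116627569 for Depp1 and chr3:52175457-52175756 for Foxo1.
Depp1: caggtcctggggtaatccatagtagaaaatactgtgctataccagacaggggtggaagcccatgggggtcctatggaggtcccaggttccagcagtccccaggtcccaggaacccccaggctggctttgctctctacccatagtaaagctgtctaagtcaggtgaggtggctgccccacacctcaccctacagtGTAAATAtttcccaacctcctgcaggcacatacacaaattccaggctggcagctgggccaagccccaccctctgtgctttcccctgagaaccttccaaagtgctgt
Foxo1: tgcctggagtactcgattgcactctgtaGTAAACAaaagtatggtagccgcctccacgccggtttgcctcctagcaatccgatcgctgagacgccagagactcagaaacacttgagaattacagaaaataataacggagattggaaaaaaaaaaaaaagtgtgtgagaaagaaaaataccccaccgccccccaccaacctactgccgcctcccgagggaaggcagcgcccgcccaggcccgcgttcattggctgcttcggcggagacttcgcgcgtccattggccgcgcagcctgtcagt

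The Foxo1 match to GTAAACA stands -272 bases from the start, where negative numbers lie before it. Depp1 held neither GTAAACA nor CAAAACA in the 2000 bases before its start. The letters GTAAATA, a forkhead variant that was added to the search after the Depp1 sequence was seen, stand at -106 from the Depp1 start. Of 12590 tested protein-coding genes, 23.6% held GTAAACA, 56.2% CAAAACA and 26.6% GTAAATA in windows of 2000 bases, on either strand. Among the 10 genes, 3 held GTAAACA, 3 held CAAAACA and 4 held GTAAATA.

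Matches of the insulin response core are shown with 11 bases on each side, for Igfbp1 because this core is its textbook insulin response element, for Irs2 because the core and GTAAACA overlap there, and for Irs1 because it was the lower gene. Each is written on the strand of its gene in GRCm39, at chr11:7147668-7147696 for Igfbp1, chr8:11060044-11060072 and chr8:11060049-11060077 (minus strand) for Irs2, and chr1:82269254-82269282 and chr1:82269175-82269203 (minus strand) for Irs1.
Igfbp1 core: gagctcacaagCAAAACAaacttattttg
Irs2 core: gggcaagggttTGTTTTGtttacgcatcc
Irs2 FoxO letters: agggtttgtttTGTTTACgcatccagagc
Irs1 core, distal: gctccgtcacgTGTTTTGctcctctggag
Irs1 core, proximal: cagccgccgctTGTTTTGgttggggctct

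The core stands at -108 from the RefSeq start of Igfbp1, and at -111 and -32 from that of Irs1, positions that lie inside the wider GENCODE spans of both genes. The Irs2 pair stands at -567 and -562 from its GENCODE start, and a further core of Irs2 stands at -37 from its RefSeq start. In the pair the last letters of the core are the first letters of the FoxO match. RefSeq promoter windows of 300 bases, given on GRCm38.p6, were placed on GRCm39 by an exact match of their sequence. In these, 3 of the 9 genes with a window held CAAAACA. Only 1, Sesn1, held GTAAACA, at 22 from its RefSeq start and so after it. Of 32544 distinct windows of all genes, 6.32% held the core and 3.66% held GTAAACA. These shares are by window, while the 9 genes were counted by gene, and a gene can have more than 1 window. These matches are letters in a window and were not measured as binding.

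Igfbp1 encodes a secreted protein that binds insulin-like growth factors and is lowered by insulin within hours. It lies on chromosome 11 from 7147651 to 7152546. Its values were 58.5, 112 and 124 CPM with vehicle and 106, 136 and 173 CPM with esculetin. Vehicle replicate 1 was far below the other vehicle libraries, esculetin replicate 1 lay among the vehicle libraries, and the groups overlapped. The fitted log2 fold change was 0.49 (standard error 0.25). Igfbp1 varied most within groups of the 10 genes, with a standard deviation of 0.486 in log2 CPM, larger than that of 86.8% of tested genes. Its log2 fold change moved between 0.22 and 0.69 when 1 library was left out, so that single libraries set its size.

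Sesn1 and Sesn3 encode sestrins, stress-induced proteins that restrain the kinase complex mTORC1 and are raised by FoxO factors. Sesn1, on chromosome 10 from 41685931 to 41784423, had 15.5, 13.8 and 12.4 CPM with vehicle and 14.3, 16.2 and 16.8 CPM with esculetin. Sesn3, on chromosome 9 from 14186363 to 14244397, had 38.9, 38.7 and 36.4 CPM with vehicle and 26.9, 38.3 and 34.3 CPM with esculetin. The groups overlapped in both. Within groups the standard deviation in log2 CPM was 0.141 for Sesn1 and 0.188 for Sesn3. The fitted log2 fold changes were a little larger in size, at 0.18 (standard error 0.12) for Sesn1 and -0.20 (standard error 0.12) for Sesn3. The Sesn3 value ran from -0.31 without esculetin replicate 2 to -0.065 without esculetin replicate 1, and that of Sesn1 from 0.11 without vehicle replicate 3 to 0.27 without vehicle replicate 1. The remaining sestrin gene, Sesn2, had 6.29 ± 2.07 CPM with vehicle and 6.91 ± 0.788 CPM with esculetin (n = 3, unadjusted p = 0.565, adjusted p = 0.858, edgeR). Exons of Sesn1 share 548 bases with those of Cep57l1 on the other strand, and since the strand setting of the counting is not given, the value of Sesn1 is uncertain. The same holds in principle for other genes with an antisense partner. Foxo1 shares 674 exon bases with Gm20402, which had 0 counts in all libraries, and Irs2 shares 366 with 9530052E02Rik, which had 8 counts over all libraries. Irs1 shares 309 exon bases with Gm70174, for which no count was analysed here, and Foxo3, Insr and Sesn3 also share exon bases with antisense non-coding genes. Depp1 lies within the span of Rassf4 on the other strand but shares no exon base with it, and Rassf4 had 5.36 CPM with vehicle and 4.93 CPM with esculetin on average.

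Klf15 encodes a factor that raises amino acid breakdown and glucose production in fasting, and its RNA follows the clock and glucocorticoids. It lies on chromosome 6 from 90438998 to 90452220. Its values were 158, 202 and 176 CPM with vehicle and 219, 207 and 196 CPM with esculetin. Only esculetin replicate 3 lay below the highest vehicle library, and the fitted log2 fold change was 0.21 (standard error 0.099), which ran from 0.13 without vehicle replicate 1 to 0.32 without vehicle replicate 2.

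**Figure D2:**
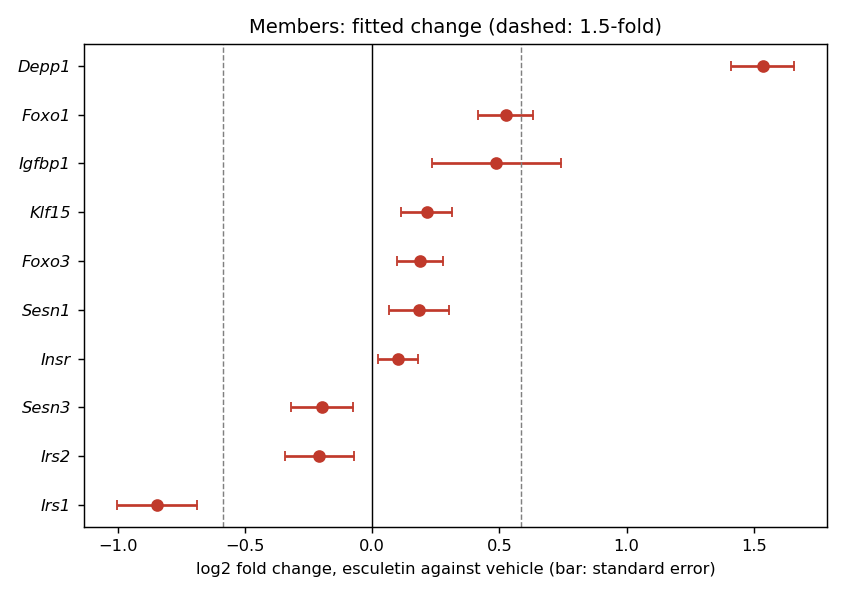
Fitted log2 fold change of esculetin against vehicle for each of the 10 genes (points) with its standard error (bars), and dashed lines at 1.5-fold in either direction. Depp1 at 1.53 and Irs1 at -0.84 lie beyond the dashed lines, and the other 8 genes lie between them, with Foxo1 at 0.52 and Igfbp1 at 0.49 nearest to the line.

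A gene was called where the unadjusted p-value of edgeR's quasi-likelihood test was under 0.05 and the fold change was over 1.5, the thresholds named in the methods of the study. Of 14433 tested genes 3.13% were called, 1.37% as higher and 1.76% as lower with esculetin, and 11.9% had an unadjusted p-value under 0.05, 943 genes higher and 768 lower. Of all tested genes 6993 had a log2 fold change above 0, and of the 2518 genes with groups that did not overlap 1328 were higher. Of the 10 genes 2 met this rule, Depp1 as higher and Irs1 as lower, and 3 of 10 had groups that did not overlap, where 17.4% of all tested genes had such groups. Since the same comparison served to choose the genes, these counts are no test of them and nothing is read from them. The median log2 fold change was 0.19 over the 10 genes and -0.0080 over all tested genes.

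Compared per exon length (TPM, counts divided by the exon length and scaled to the same sum in each library), the 10 genes covered a wide range of levels in vehicle liver. Igfbp1 was the highest with 194 ± 65.5 TPM, followed by Depp1 with 89.7 ± 9.95 and Klf15 with 81.6 ± 10.6 TPM (mean ± SD, n = 3). Depp1 and Klf15 overlapped in the vehicle group. Insr had 39.3 ± 3.01, Foxo3 24.5 ± 1.98 and Foxo1 17.4 ± 2.26 TPM, and each of these stood clear of its neighbours in the order. Sesn1 with 9.30 ± 1.28, Irs2 with 8.65 ± 1.05 and Sesn3 with 7.30 ± 0.495 TPM overlapped with their neighbours among these 3, and Irs1 was the lowest with 3.62 ± 0.648 TPM.

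With esculetin the order of the means was the same, but the gaps changed. Depp1 reached 256 ± 44.5 TPM and overlapped with Igfbp1 at 270 ± 73.0 TPM, while it now stood clear of Klf15 at 92.8 ± 2.75 TPM. Foxo1 at 24.7 ± 0.578 TPM overlapped with Foxo3 at 27.4 ± 3.09 TPM, from which it was separate in the vehicle group. Irs1, at 1.97 ± 0.186 TPM, remained clear below Sesn3 at 6.26 ± 1.16 TPM. With the length of the longest transcript in place of all exons, 5 of the 10 genes kept their place in the order in the vehicle group, because Klf15 came above Depp1 and Sesn3 above Sesn1 and Irs2.

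**Figure D3:**
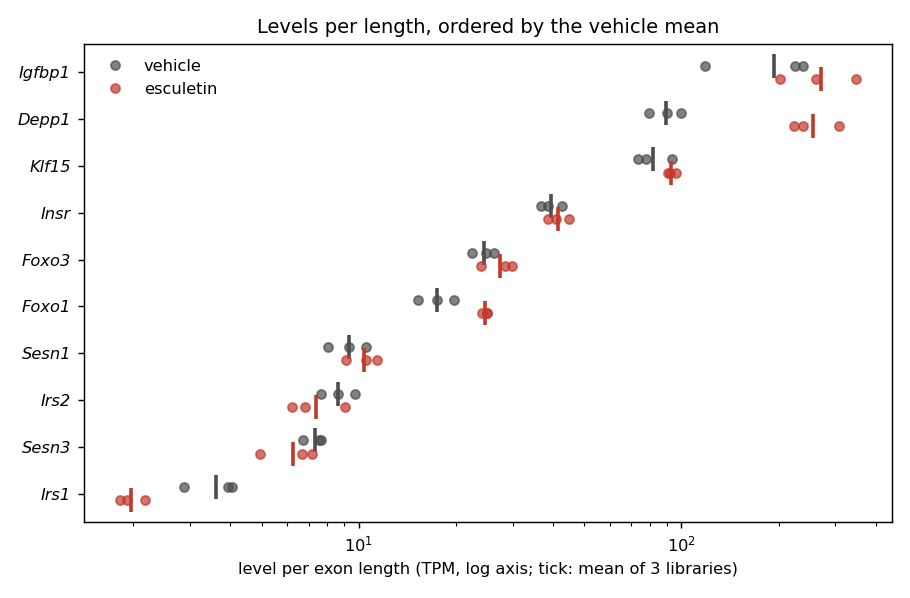
Level per exon length in TPM (log axis) of the 10 genes in each vehicle and esculetin library (points) with group means (ticks), ordered by the vehicle mean from Igfbp1 at 194 to Irs1 at 3.62 TPM. With esculetin Depp1 moves into the range of Igfbp1, and Foxo1 into that of Foxo3.

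The genes whose pattern was most like that of Depp1 were sought by the Pearson correlation of log2 CPM over the 6 libraries, among 7235 tested genes with a mean of at least 10 CPM. The closest 5 were Rnf114 (r = 0.998), Ndufa4 and Smim11 (r = 0.990 each), and Ugt2b35 and Med21 (r = 0.989 each). The libraries differ in treatment and in depth, so this likeness is a description of the 6 libraries. Among these genes Ugt2b35, a glucuronosyltransferase gene, had the largest log2 fold change at 0.60, and that of the others was between 0.16 and 0.31, well under that of Depp1. Foxo1 stood at place 306 of 7235 with r = 0.866, behind Fkbp5 at place 159 with r = 0.909. Klf15 (0.719), Igfbp1 (0.695), Foxo3 (0.675), Sesn1 (0.606) and Insr (0.604) followed, while Irs2 (-0.418) and Sesn3 (-0.518) ran the other way, and Irs1 was under the minimum level.

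The wider pathway was described with 81 genes in 4 lists that exclude the 10 genes, of which 79 were tested. In the list of insulin receptor and PI3K/AKT signalling 0 of 34 genes were called, beside 3.13% of all tested genes, and 3 had an unadjusted p-value under 0.05 in edgeR's quasi-likelihood test, beside 11.9%. These were Pik3r1, the main regulatory subunit of PI3-kinase (log2 fold change -0.36), Grb14, an inhibitor of the insulin receptor (-0.24), and Eif4ebp1, a target of mTORC1 (0.39). The median of the list was -0.048, near that of all tested genes. Srebf1, the insulin-raised factor of lipogenesis, had 242 ± 33.0 CPM with vehicle and 208 ± 64.6 CPM with esculetin (n = 3), with overlapping groups and esculetin replicate 3 the lowest library at 135 CPM. Trib3, which binds AKT, had 3.75 ± 1.60 and 5.02 ± 1.06 CPM, with a log2 fold change that ran from 0.20 without vehicle replicate 1 to 0.82 without vehicle replicate 2, where it was called, and Igf1r, the receptor related to Insr, had 3.21 ± 0.484 and 2.46 ± 0.907 CPM.

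Among 12 tested genes of the FoxO family and its regulators, 1 was called, beside 3.13% of all tested genes. An unadjusted p-value under 0.05 in edgeR's quasi-likelihood test was reached by 2, beside 11.9% of all tested genes. The called gene was Sgk1, a kinase related to AKT that phosphorylates FoxO3. Sgk1 had 45.4, 50.8 and 31.3 CPM with vehicle and 28.2, 26.9 and 19.7 CPM with esculetin. It fell in all esculetin libraries relative to every vehicle library. In edgeR's quasi-likelihood test the log2 fold change was -0.77 with a standard error of 0.18 (unadjusted p = 0.00200, and 0.173 after Benjamini-Hochberg adjustment). Ppargc1a, the coactivator of FOXO1 in gluconeogenesis, had 11.4 ± 2.56 and 12.3 ± 1.29 CPM (n = 3).

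Among 24 other genes reported as FoxO targets 4 were called, 3 as higher and 1 as lower, where 3.13% of all tested genes were called. An unadjusted p-value under 0.05 was reached by 10, of which 9 were higher with esculetin, beside 11.9% of all tested genes. The groups did not overlap in 12, of which 11 were higher, beside 17.4% of all tested genes. The median log2 fold change was 0.16, and 19 of the 24 were above 0, beside 6993 of 14433 tested genes. The list was chosen with results of these data known, so these counts are a description. The higher genes called were Ccng2, which encodes a cyclin of cell cycle arrest, Cdkn1a, which encodes the cell cycle inhibitor p21, and Txnip, which encodes an inhibitor of thioredoxin and of glucose uptake. Ccng2 went from 11.4 ± 2.10 to 17.5 ± 1.48 CPM (log2 fold change 0.62, unadjusted p = 0.00141, adjusted p = 0.159). Cdkn1a went from 1.56 ± 0.163 to 2.63 ± 0.445 CPM (0.75, unadjusted p = 0.00991, adjusted p = 0.264, same test).

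Txnip had 36.2, 34.9 and 43.6 CPM with vehicle and 44.9, 48.2 and 104 CPM with esculetin. Its difference rested on esculetin replicate 3, without which the log2 fold change was 0.29 in place of 0.78 and the gene was not called (unadjusted p = 0.0184, adjusted p = 0.313 with all libraries, edgeR). The gene called as lower was G6pc1, the catalytic subunit of glucose-6-phosphatase and a classical FOXO1 target, with 923, 599 and 478 CPM with vehicle and 256, 437 and 362 CPM with esculetin. All esculetin libraries were below all vehicle libraries, and the fitted change was -0.92 on the log2 scale (standard error 0.24, edgeR, unadjusted p = 0.00357, adjusted p = 0.204). So G6pc1 was lower where Depp1 was higher.

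Pck1, the other gluconeogenic target, had 3311 ± 174 CPM with vehicle and 3602 ± 68.2 CPM with esculetin (n = 3), with groups that did not overlap but a log2 fold change of 0.12 (unadjusted p = 0.149, adjusted p = 0.582, edgeR). Pdk4, a fasting gene of pyruvate oxidation, was low in both groups with 3.13 ± 0.935 and 3.22 ± 0.722 CPM. Bcl6 spread widely, with 88.2, 106 and 20.4 CPM with vehicle and 55.6, 21.9 and 30.3 CPM with esculetin, and its groups overlapped (means ± SD 71.5 ± 45.1 and 35.9 ± 17.5 CPM, n = 3, unadjusted p = 0.0786, adjusted p = 0.481, edgeR). Its log2 fold change ran from -1.46 without esculetin replicate 1 to -0.60 without vehicle replicate 2, and it was called without esculetin replicate 1, without vehicle replicate 3 (-1.43) and without the filter on low counts. Cited2 had 17.9 ± 2.33 and 21.8 ± 5.41 CPM. The 6 targets that passed the p-value but not the fold threshold were all higher with esculetin. They were Fbxo32 (log2 fold change 0.47), a ubiquitin ligase gene of atrophy, the autophagy genes Atg14 (0.43), Bnip3 (0.39) and Gabarapl1 (0.34), Apoc3 (0.36), an inhibitor of lipoprotein clearance, and Pnpla2 (0.26), the adipose triglyceride lipase gene.

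**Figure D4:**
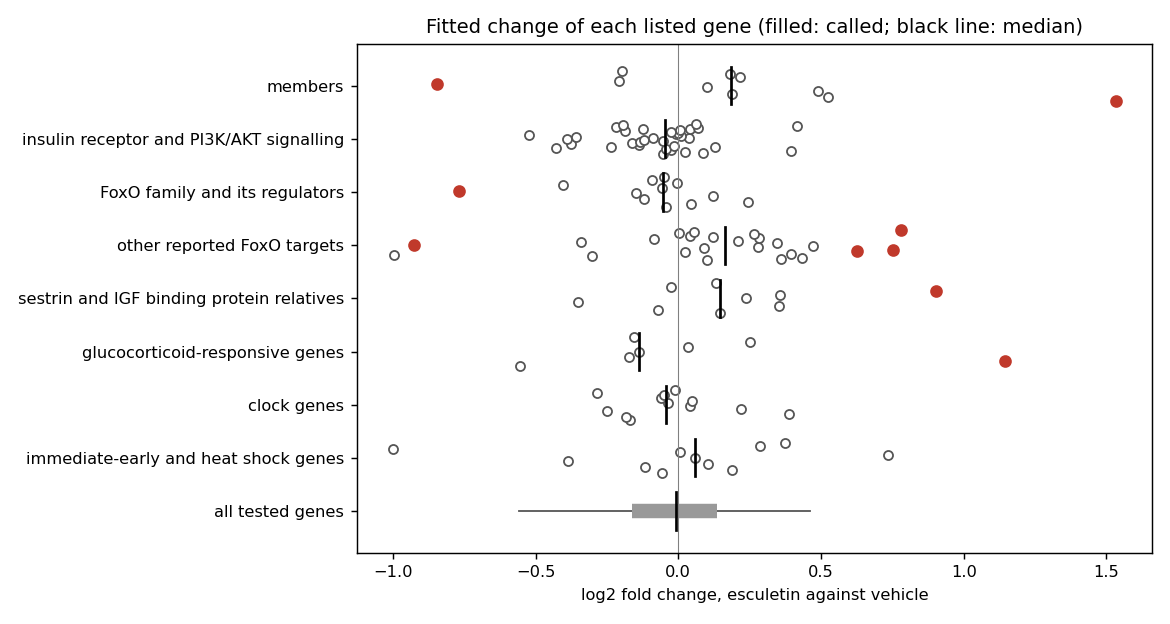
Log2 fold change of esculetin against vehicle (horizontal axis) for each tested gene of the 10 (row "members") and of the 7 lists, with filled points for called genes, open points for the rest and black lines for medians. The lowest row shows all tested genes as the 25th to 75th percentile (thick) and the 5th to 95th percentile (thin, -0.56 to 0.46), and the median of the other FoxO targets stands at 0.16.

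In the list of sestrin and IGF binding protein relatives 1 of 9 tested genes was called, Igfbp6, which went from 1.40 ± 0.219 to 2.61 ± 0.732 CPM (log2 fold change 0.90, unadjusted p = 0.00938, adjusted p = 0.258, edgeR). Igfbp2, an abundant liver binding protein, had 249 ± 11.1 and 317 ± 26.1 CPM and a log2 fold change of 0.35, under the fold threshold (unadjusted p = 0.00208, adjusted p = 0.174). Igf1 had 741 ± 61.8 and 820 ± 85.0 CPM (n = 3), with overlapping groups. Over the 4 lists 6 of 79 genes were called (7.59%, beside 3.13% of all tested genes), 4 as higher and 2 as lower, and the median log2 fold change was -0.00031. After adjustment 0 of the 79 had a p-value under 0.05 with edgeR, against 18 before adjustment (11.9% of all tested genes). With DESeq2 there were 6 and with limma-voom 0.

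**Figure D5:**
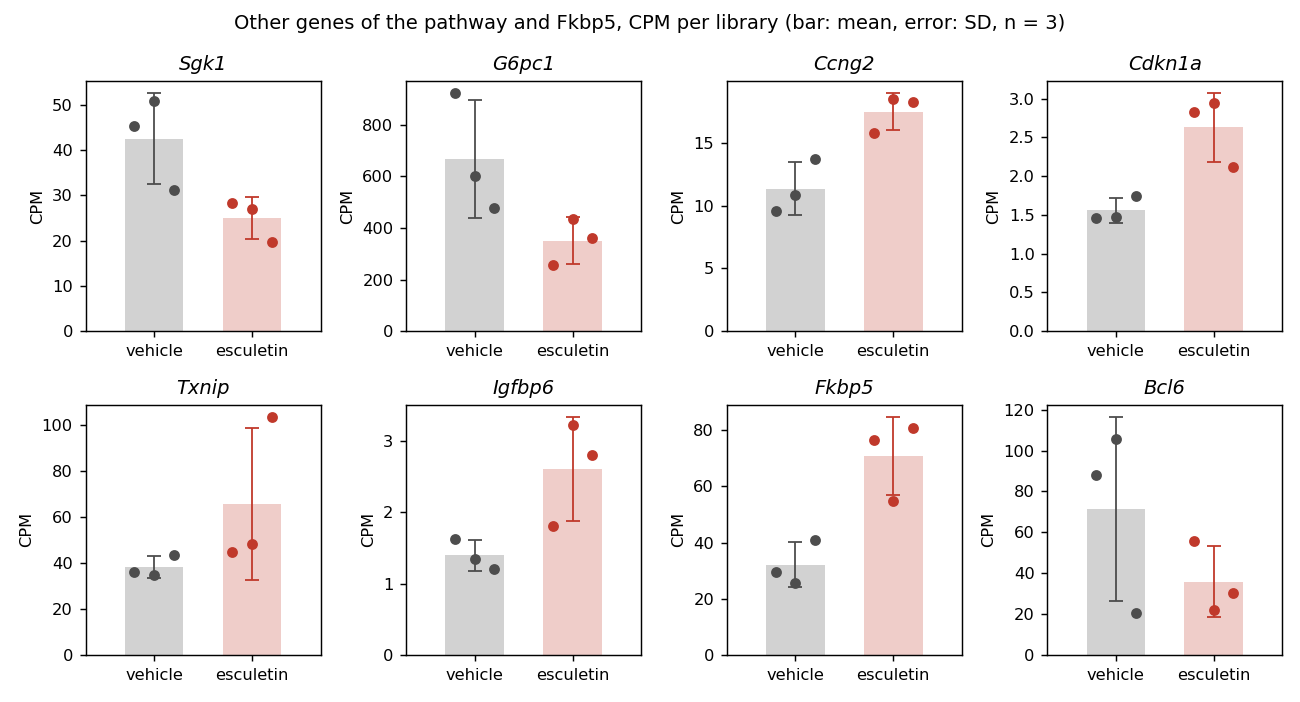
CPM (vertical axes, each starting at 0) of the 6 called genes of the pathway lists, of Fkbp5 and of Bcl6 in the vehicle and esculetin libraries, with points for libraries, bars for means and error bars for the SD. The 7 called genes show no overlap between groups, Txnip has 1 esculetin library at 104 CPM far above the rest, and Bcl6 overlaps.

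Genes of glucocorticoid response, the clock and tissue handling were set beside the 10 genes because Depp1, Klf15, Sgk1 and Igfbp1 are known to follow hormones and the time of day. Of 7 glucocorticoid-responsive genes 1 was called, Fkbp5, a chaperone of the glucocorticoid receptor, and 3 had an unadjusted p-value under 0.05, 1 higher and 2 lower, with a list median of -0.14. Over all tested genes these shares were 3.13% and 11.9%. It had 29.6, 25.6 and 41.0 CPM with vehicle and 76.6, 54.8 and 80.9 CPM with esculetin, a log2 fold change of 1.14 (unadjusted p = 0.000122, adjusted p = 0.114, edgeR). Of the others in the list, Tsc22d3 had 262 ± 26.0 and 312 ± 60.0 CPM, Per1 had 35.0 ± 6.33 and 31.8 ± 4.61 CPM, and Dusp1 had 36.5 ± 3.10 and 24.8 ± 1.98 CPM, lower in all esculetin libraries with a log2 fold change of -0.56 (unadjusted p = 0.000219, adjusted p = 0.132, edgeR). Nr3c1, the glucocorticoid receptor gene, had a log2 fold change of -0.17 (unadjusted p = 0.0432, adjusted p = 0.399, edgeR), with groups that did not overlap. Of 12 tested clock genes 0 were called and 2 had an unadjusted p-value under 0.05, and of 11 immediate-early and heat shock genes 0 were called and 0 had such a p-value. The part of hormone levels or time of day in the values of the 10 genes was not tested.

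Depp1 is also known from endothelial cells and fat. The 7 endothelial markers summed to between 165 and 204 CPM with vehicle and between 175 and 201 CPM with esculetin. Of these, 0 of 7 were called, and the share called of all tested genes, for this and the lists below, was 3.13%. Of the 4 adipocyte markers, Lep had 0 counts in every library, Adipoq had 0 CPM in every vehicle library and 0.0590 CPM on average with esculetin, and the list summed to at most 0.613 CPM with vehicle and 1.19 CPM with esculetin, with Cfd the 1 tested gene and called as higher. Kupffer cell and macrophage markers summed to between 265 and 361 CPM with vehicle and between 274 and 283 CPM with esculetin. None of the 6 was higher, the groups did not overlap in 2, beside 17.4% of all tested genes, and Cd68 had a log2 fold change of -0.37 (unadjusted p = 0.0225, adjusted p = 0.337, edgeR). Of 6 stellate cell markers 1 was called, Des as higher, and the groups did not overlap in 2. In this list 2 of 6 were above 0 and the median log2 fold change was -0.11. Of 5 cholangiocyte markers 1 was called, Spp1 as lower, while the other 4 were above 0 and the median was 0.24. Stellate cell markers summed to 284 to 327 CPM and 258 to 341 CPM, and cholangiocyte markers to 39.5 to 80.4 CPM and 30.3 to 45.7 CPM, of which Spp1 made up most, with 34.7 to 75.5 CPM with vehicle and 23.7 to 39.1 CPM with esculetin. Markers of lymphocytes, skeletal muscle and pancreas summed to at most 3.64, 1.19 and 25.7 CPM, and 1 of 3 tested lymphocyte markers, Cd79a, was called as higher (log2 fold change 1.12), with Acta1, Cpa1 and Prss2 at 0 counts in every library. In bulk liver fewer cells of a type and less RNA per cell cannot be told apart.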

How the data were processed

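RNA was purified from livers with Trizol and libraries were prepared with the NEBNext Ultra RNA kit. The authors mapped the reads with HISAT 2.2.1 onto GRCm39 and counted them per gene with featureCounts. The deposited values are raw whole-number counts. The annotation release, the strand setting and the treatment of multi-mapping reads are not given in the sources used here, and the submitters' processing notes also name mm10. Columns of the count table were matched to libraries by the dose and replicate number in their names.

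Identifiers, positions and exon lengths came from GENCODE vM39 (GRCm39), which held 54749 of 55357 gene identifiers. Genes were kept with filterByExpr, scaled with TMM and tested in R 4.3.3 by quasi-likelihood with edgeR 4.0.16. A standard error was taken as the size of the log2 fold change over the root of its F value. Totals per library were between 27957713 and 34920922 counts. The variation between libraries of a group beyond counting noise (biological coefficient of variation) was 14.6%. The p-values set the difference between groups against the spread between pools of mice, which was estimated partly from all tested genes. Pairs of replicates differed by at least 26.6 in chi-square per gene, so no library was a copy. The promoter windows came from RefSeq (GRCm38.p6). Protein sequences were not used here. The fits were tested on simulated data.

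The 10 genes and all lists were chosen with earlier results of these data known. Genes named singly are the 10 genes, a set list of further genes (1 of which is not reported here), every listed pathway or context gene that was called, and the 5 genes most like Depp1. Foxo6, Pik3r1, Grb14, Eif4ebp1, Apoc3, Gabarapl1, Bnip3, Atg14, Fbxo32, Pnpla2, Nr3c1, Dusp1, the genes overlapping a named gene and single markers were named after their values were seen. Of 5 hepatocyte markers 1 was not matched by its symbol. Other settings tried were limma-voom (limma 3.58.1, the package of the study), DESeq2 1.42.0, other scaling, other filters on low counts, other fold thresholds, leaving out single libraries, a block for the replicate number, and the longest transcript as length. The window of 2000 bases and the GTAAATA letters were added after the data were seen.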

Additional observations from a re-analysis of the deposited data

How the results depend on the processing

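The comparison served to choose the 10 genes, so their counts here describe the settings and support nothing. Of the 10, 2 met the thresholds, 1 with a fold change over 2, and from 2 to 4 with single libraries left out, the highest without vehicle replicate 3, where Foxo1 and Igfbp1 were added, and 3 without esculetin replicate 1, where Igfbp1 was added. Genes called over all tested genes numbered 452, and 776 without the filter on low counts, 1711 without a fold threshold, 217 with a fold change over 2 and between 411 and 588 with 1 library left out. Those with an adjusted p-value under 0.05 numbered 6, and 193 with DESeq2, 477 without the filter, 15 with the replicate block and between 2 and 45 with 1 library left out (45 without vehicle replicate 1, 2 without vehicle replicate 2 and 15 without vehicle replicate 3).

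Of the pathway genes 6 were called, and 18 without a fold threshold, 0 with a fold change over 2 and between 6 and 8 with 1 library left out. After adjustment 0 of them had a p-value under 0.05, against 6 with DESeq2 (Apoc3, Ccng2, Gabarapl1, Igfbp2, Pik3r1 and Sgk1), 11 without the filter, 1 (Sgk1) with the replicate block and 0 to 0 with 1 library left out. Txnip was not called with DESeq2, without esculetin replicate 3 or without vehicle replicate 2, and Ccng2 was not called without esculetin replicate 2 or without vehicle replicate 1. Of the context genes 1 was called (Fkbp5), and 3 with limma-voom, 2 without the filter, 2 with total counts, 5 without a fold threshold and between 1 and 3 with 1 library left out, Fkbp5 among them each time. The cause of these changes was not tested.

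When 1 library was left out the direction changed for genes with small differences, with log2 fold changes from -0.044 to 0.44 for Sesn2, -0.022 to 0.31 for Ppargc1a, -0.39 to 0.019 for Srebf1, -0.14 to 0.29 for Pdk4 and -0.22 to 0.023 for Per1. In the vehicle group 5 of the 10 genes kept their place in the order of levels with the longest transcript as length. Libraries of the same number in both groups came from separate mice, so the number was not used as a pairing in the main fit. Their departures from the group mean correlated between -0.069 and 0.0027. Whether libraries of the same number shared a processing step was not tested. Under the replicate block 399 genes were called, with 2 of the 10 genes, 6 pathway genes and 1 context gene among them.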
